A study of Mus musculus with 28 samples.

Results

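Matrix metalloproteases (MMPs) are zinc-dependent endopeptidases that cut collagens, gelatins, laminins, proteoglycans and many cell-surface proteins. They are made as inactive proenzymes, are activated by removal of a propeptide, and are held in check by 4 tissue inhibitors of metalloproteases (TIMPs), each of which can block most MMPs. In tumours both the cancer cells and the host cells around them make these enzymes, and the balance of proteases and inhibitors shapes matrix turnover, growth factor release and cell movement. The 10 genes described here, of 55291 in the tables, are 7 proteases (Mmp2, Mmp3, Mmp9, Mmp10, Mmp13, Mmp14, Mmp23) and 3 inhibitors (Timp1, Timp2, Timp3). They were chosen by their symbols with the measured values of all 8 groups in view, so their counts of calls describe them and are no independent evidence. The tables hold 23 Mmp and 4 Timp genes in all. The other 17 are given only as a background.

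The libraries came from LLC, a mouse lung carcinoma line that the labels list as WT. At 36 h, 3 libraries received vehicle and 3 received 200 nM BAY-876, an inhibitor of the glucose transporter GLUT1. In a separate experiment LLC cells were first given 200 nM BAY-876 or nothing over 24 h, and then 20 ng/ml TNF, an inflammatory cytokine, or nothing over 32 h, which made 4 groups of 3 libraries. The groups are named control, BAY-876 alone, TNF alone and the combination (BAY-876 with TNF). LLC-OVA-NGFR cells were also grown under the skin of Rag1 ko mice, which received activated OT1 T cells by vein on day 9, and on day 16 cancer cells (5 libraries) and OT1 cells (5 libraries) were sorted from the tumours. All 10 of these libraries thus come from hosts that received the T cells, and none from an untreated tumour. Rag1 ko hosts lack mature lymphocytes but keep myeloid cells. OT1 cells carry a transgenic receptor for an ovalbumin peptide. The labels give no age, sex or number of mice and do not say whether replicates are separate cultures or mice. The p-values therefore reflect only the scatter among the libraries at hand, part of which could be technical.

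Values at 36 h are normalized counts, and those at 32 h and on day 16 are TPM, transcript levels per length scaled to 1000000 in each library, which can be compared between genes. The 3 tables were normalized separately and each was tested on its own. The depth behind the TPM values is unknown, so no counting interval can be given. Tests are limma fits over all genes of a table on log2(value + 1), with Benjamini-Hochberg adjustment over all genes kept and a threshold of 0.05. A log2 difference on that scale understates changes of genes at low levels. In culture the pan-leukocyte gene Ptprc was at most 0.0338 TPM, and summed T cell and neutrophil markers stayed at or below 1.28 and 0.992 TPM. The 14 myeloid markers, of which 7 to 9 were at 0, summed to 13.2 to 15.1 TPM in control, 18.8 to 22.5 with BAY-876, 18.2 to 18.4 with TNF and at least 22.1 with both. The list did not move as a whole, since Cd14 was called higher and Lyz2 lower with each agent alone. On day 16 the OT1 libraries held the T cell markers at a sum of 2224 to 3596 TPM against 3.67 to 5.87 in tumour cells, as labelled. They also held the 14 myeloid markers at 993, 4882, 2334, 3130 and 13089 TPM in replicates 1 to 5, against 38.0 to 124 in tumour cells. OT1 replicate 5 stood apart, with the highest myeloid and the lowest T cell sum of the 5.

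The members Mmp13, Mmp3 and Mmp10 lie in the MMP cluster of mouse chromosome 9, which holds 10 Mmp genes in 427072 bases. On GRCm38, all on the plus strand, Mmp13 spans chr9:7272514-7283331, Mmp3 chr9:7445822-7455975 and Mmp10 chr9:7502352-7510240. Mmp12 and Mmp1b lie between Mmp13 and Mmp3, and Mmp1a lies between Mmp3 and Mmp10. RefSeq promoter windows of GRCm38.p6 were matched for 8 of the 10 members, with none for Mmp2 and Mmp9. The 250 bases before the start are printed for the 3 cluster genes because they share a motif pair, and for Mmp14 and Timp2, the protease and the inhibitor with the highest TPM in control cells, because they hold another. Capitals mark 3 motifs that were searched on both strands. The binding letters of the AP-1 factors were taken as TGANTCA. The core promoter element known by its letters was searched as TATAAA. The GC box, bound by Sp factors, was searched as GGGCGG.
Mmp13 promoter, plus strand, chr9:7272264-7272513: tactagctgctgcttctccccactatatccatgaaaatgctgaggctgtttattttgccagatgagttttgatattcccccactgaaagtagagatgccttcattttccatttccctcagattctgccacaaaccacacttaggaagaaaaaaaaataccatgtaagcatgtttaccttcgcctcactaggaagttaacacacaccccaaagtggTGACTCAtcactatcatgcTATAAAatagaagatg
Mmp3 promoter, plus strand, chr9:7445572-7445821: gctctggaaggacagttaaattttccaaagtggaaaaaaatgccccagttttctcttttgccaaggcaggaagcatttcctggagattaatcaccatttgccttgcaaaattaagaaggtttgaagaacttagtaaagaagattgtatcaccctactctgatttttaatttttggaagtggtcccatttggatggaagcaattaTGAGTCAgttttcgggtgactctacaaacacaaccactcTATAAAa
Mmp10 promoter, plus strand, chr9:7502092-7502341: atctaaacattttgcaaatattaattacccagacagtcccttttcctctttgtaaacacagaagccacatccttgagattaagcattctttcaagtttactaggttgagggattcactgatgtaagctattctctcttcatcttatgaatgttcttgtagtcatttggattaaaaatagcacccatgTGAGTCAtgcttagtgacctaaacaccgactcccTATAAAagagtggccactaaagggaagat
Mmp14 promoter, plus strand, chr14:54431348-54431597: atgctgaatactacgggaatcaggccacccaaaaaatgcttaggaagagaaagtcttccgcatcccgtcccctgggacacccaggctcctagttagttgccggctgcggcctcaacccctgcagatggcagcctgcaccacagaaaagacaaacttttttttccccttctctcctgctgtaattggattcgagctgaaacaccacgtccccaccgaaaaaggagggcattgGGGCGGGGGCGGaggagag
Timp2 promoter, minus strand, chr11:118355412-118355661: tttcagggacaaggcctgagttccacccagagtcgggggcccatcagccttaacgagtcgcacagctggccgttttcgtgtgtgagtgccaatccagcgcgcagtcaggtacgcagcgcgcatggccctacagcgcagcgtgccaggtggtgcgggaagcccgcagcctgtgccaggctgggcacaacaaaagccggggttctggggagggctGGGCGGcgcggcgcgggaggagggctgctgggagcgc

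The 3 cluster promoters each held 1 AP-1 site followed by 1 TATA box, with the AP-1 site ending 29 bases before the listed start of Mmp13, 40 before that of Mmp3 and 57 before that of Mmp10. Of 32851 RefSeq promoter windows of this length, 6.75% held the AP-1 letters and 12.4% the TATA letters. Mmp14, with 2 adjoining GC boxes, and Timp1, Timp2 and Timp3, with 1 each, held neither, and 32.7% of all windows held a GC box. No member window matched the NF-kappaB consensus, which 3.9% of all windows held, and the Mmp23 windows held none of the 4 motifs. These are letter matches, not measured binding. The Timp2 window and its GC box lie inside the GENCODE model of Timp2, which spans chr11:118301069-118355740 on the minus strand. They are thus upstream of the RefSeq start only. The Timp3 window, chr10:86300162-86300411, runs past the GENCODE start at 86300372, and its GC box lies beyond that start.

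Mmp9 encodes gelatinase B, a secreted protease of denatured and basement-membrane collagens. It was near the floor in LLC cells without TNF and abundant with it. Control libraries 1 to 3 read 0.384, 0.237 and 0.405 TPM, and TNF libraries read 36.4, 32.0 and 34.1 TPM. BAY-876 alone gave 0.147, 0.265 and 0.277 TPM, and BAY-876 with TNF gave 29.6, 30.0 and 30.2 TPM. All 6 libraries with TNF thus lay far above all 6 without it, and the means with TNF stood at 100.05 times the control mean and 130.1 times the mean of BAY-876 alone. Mmp9 passed the filter of 1 TPM in 3 libraries only through the libraries with TNF, so its calls with TNF followed from the filter and no p is given for them. The log2 difference of TNF against control was 4.71 (SE 0.09) and that of BAY-876 with TNF against BAY-876 was 4.65 (SE 0.09). A pseudocount of 0.1 in place of 1 gave 6.30 for TNF against control. The authors' deposited table gives a log2 fold change of 6.72 (SE 0.251) for TNF against control and 7.08 (SE 0.291) for the combination against BAY-876. Libraries of the combination lay below those of TNF alone without overlap, at a ratio of means of 0.874, but the difference of −0.19 (SE 0.09) did not pass (limma adjusted p = 0.135). In the 36 h experiment, without TNF, Mmp9 was also low, at 17.1, 20.1 and 17.9 normalized counts with vehicle and 16.47, 22.1 and 27.9 with BAY-876.

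Mmp9 took 0.189% ± 0.0547 (SD, n = 3) of the summed Mmp TPM in control cells and 17.04% ± 0.622 (SD, n = 3) with TNF. Among 9173 genes with a mean of at least 5 TPM, the 3 whose log2 values followed Mmp9 most closely over the 12 libraries were Nfkb2 (Pearson r = 0.999), Nfkbia (r = 0.998) and Nfkbie (r = 0.996), a subunit and 2 inhibitors of NF-kappaB. These 12 points fall into 2 sets, with and without TNF, which fixes most of each correlation. The 3 of 17 other Mmp and Timp genes that passed the filter at 32 h all fell with TNF. Beside them 45.6% of all genes were called with TNF (19.4% higher, 26.1% lower), and nothing is read from so small a count. The log2 differences were −1.86 for Mmp28 (epilysin), −1.25 for Mmp19 and −1.14 for Mmp11 (stromelysin-3) (limma adjusted p = 2.02e-06, 2.76e-05 and 3.18e-06).

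**Figure D1:**
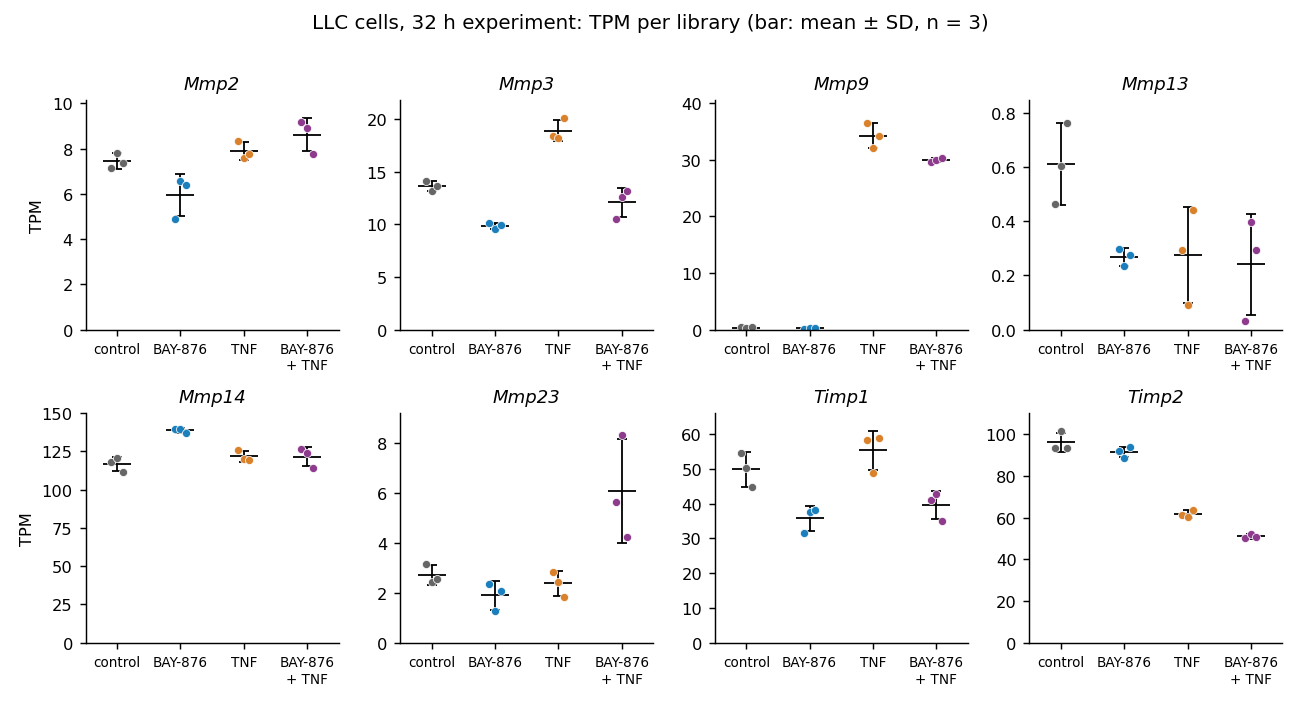
TPM of 8 members in the 12 LLC libraries of the 32 h experiment, by group, 1 point per library with the mean and SD (n = 3) in black, each panel on its own axis from 0. Mmp9 stood at 29.6 to 36.4 TPM with TNF and at 0.147 to 0.405 without it, and Timp2 was lower in every library with TNF.

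Timp2, whose protein inhibits MMPs and also joins MMP14 in activating the proenzyme of MMP2, fell with TNF. Control libraries held 93.4, 101.3 and 93.2 TPM and TNF libraries 61.3, 60.1 and 63.8 TPM. BAY-876 libraries held 91.7, 88.7 and 93.5 TPM and those of the combination 50.1, 52.3 and 50.7 TPM. The groups ordered as control, BAY-876, TNF and combination, with overlap only between control and BAY-876, whose difference of −0.07 (SE 0.05) did not pass. TNF lowered Timp2 by 0.63 on the log2 scale against control (SE 0.05, limma adjusted p = 6.49e-07) and by 0.83 against BAY-876 (SE 0.05, limma adjusted p = 7.54e-08). The combination was lower than TNF alone by a smaller step, −0.27 (SE 0.05, limma adjusted p = 0.000931). The interaction, which asks whether BAY-876 acted differently with TNF than without, was −0.20 (SE 0.06) and did not pass (limma adjusted p = 0.169). Timp2 overlaps Cep295nl on the same strand, a gene at no more than 1.02 TPM at 32 h. Genes most like it over the 12 libraries were Tcf7l1, Etv1 and Pdlim2 (Pearson r = 0.996, 0.996 and 0.993), again over 2 separated sets.

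Timp1, a secreted inhibitor that can also bind the proenzyme of MMP9, fell with BAY-876 and showed no change with TNF that passed. Control libraries held 54.6, 50.2 and 44.7 TPM and BAY-876 libraries 31.6, 37.6 and 38.0 TPM, without overlap. With TNF the values were 58.2, 48.8 and 58.7 TPM, and with both agents 40.9, 42.6 and 35.0 TPM. The BAY-876 difference was −0.47 (SE 0.11) without TNF (limma adjusted p = 0.00506) and −0.47 (SE 0.11) with it (limma adjusted p = 0.00496). At 36 h Timp1 stood at 559, 603 and 546 normalized counts with vehicle and 577, 539 and 463 with BAY-876, groups that overlap (log2 −0.12, SE 0.10, limma adjusted p = 0.466). Timp1 lies inside Syn1 on the other strand, and Syn1 was at 9.39 to 15.8 TPM at 32 h. The sources used here do not say whether counting used strand, so reads of the pair may not have been told apart. Timp3, a matrix-bound inhibitor that also blocks ADAM17, was listed at 0 in 17 of 18 culture libraries and at 0.0814 TPM in the remaining one.

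Mmp14 encodes a membrane-anchored collagenase that activates MMP2 at the cell surface. It had the highest TPM of the Mmp genes in each 32 h group and rose with BAY-876 in both experiments. At 36 h vehicle libraries read 3127, 2925 and 3178 normalized counts and BAY-876 libraries 3852, 3856 and 3939. At 32 h control libraries read 118, 120.5 and 111 TPM and BAY-876 libraries 139, 139 and 137 TPM. Neither pair of groups overlapped. The log2 difference was 0.34 at 36 h (SE 0.05, limma adjusted p = 0.00478) and 0.25 at 32 h (SE 0.05, limma adjusted p = 0.00145). With TNF on board the rise was not seen: TNF libraries read 126, 119.9 and 119.6 TPM and the combination 126, 124 and 114 TPM, a difference of −0.0040 (SE 0.05). The interaction of −0.25 (SE 0.06) missed the threshold (limma adjusted p = 0.0851), so a difference in the BAY-876 response was not established. The combination was lower than BAY-876 alone by 0.19 (SE 0.05, limma adjusted p = 0.00528). TNF alone gave 0.06 (SE 0.05, limma adjusted p = 0.303), a value that turned to −0.01 under quantile normalization, while the authors' deposited table gives a log2 fold change of 0.135 (SE 0.0508) with an adjusted p of 0.0237.

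Mmp3, or stromelysin-1, a protease of many matrix proteins that can also activate other MMPs, fell with BAY-876 and rose with TNF. At 36 h it fell from 240, 231 and 241 normalized counts with vehicle to 153, 127 and 155 with BAY-876. At 32 h control libraries read 14.1, 13.2 and 13.7 TPM and BAY-876 libraries 10.1, 9.56 and 9.94 TPM. TNF libraries rose to 18.4, 18.2 and 20.1 TPM, and those of the combination read 10.5, 12.6 and 13.1 TPM. The groups thus ordered as TNF, control, combination and BAY-876, with no overlap between neighbours, although the highest combination library lay only 0.0814 TPM below the lowest control library. BAY-876 lowered Mmp3 by 0.71 at 36 h (SE 0.12, limma adjusted p = 0.00768), by 0.43 at 32 h (SE 0.08, limma adjusted p = 0.00172) and by 0.61 in the presence of TNF (SE 0.08, limma adjusted p = 0.00022). TNF raised it by 0.44 against control (SE 0.08, limma adjusted p = 0.00103). The rise of 0.26 with TNF in BAY-876 cells (SE 0.08, limma adjusted p = 0.0217) lost its call when only the groups compared were fitted (limma adjusted p = 0.0726) and without BAY-876 replicate 2, combination replicate 2 or combination replicate 3 (limma adjusted p = 0.0657, 0.0724 and 0.0822). The interaction of −0.18 (SE 0.12) did not pass (limma adjusted p = 0.535).

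The 2 other cluster genes, the collagenase Mmp13 and stromelysin-2, Mmp10, were scarce in LLC cells. Mmp13 read 23.02, 37.0 and 45.0 normalized counts with vehicle and 17.6, 15.0 and 20.2 with BAY-876 at 36 h. The groups did not overlap, but the difference of −0.91 (SE 0.31) did not pass (limma adjusted p = 0.0816). At 32 h it was under the filter, at 0.464, 0.606 and 0.765 TPM in control and 0.233 to 0.297 TPM with BAY-876. It read 0.296, 0.0907 and 0.444 TPM with TNF, all below the control libraries, and 0.0319, 0.398 and 0.292 TPM with both agents. Mmp10 was under the filter in both, at 14.4, 9.74 and 5.75 normalized counts with vehicle and 4.13, 3.22 and 2.02 with BAY-876, and at no more than 0.194 TPM at 32 h. Of these cluster genes only Mmp3 passed the test at 36 h. Mmp13 did not pass and Mmp10 was not tested, so a shared fall of the cluster genes was not established.

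**Figure D2:**
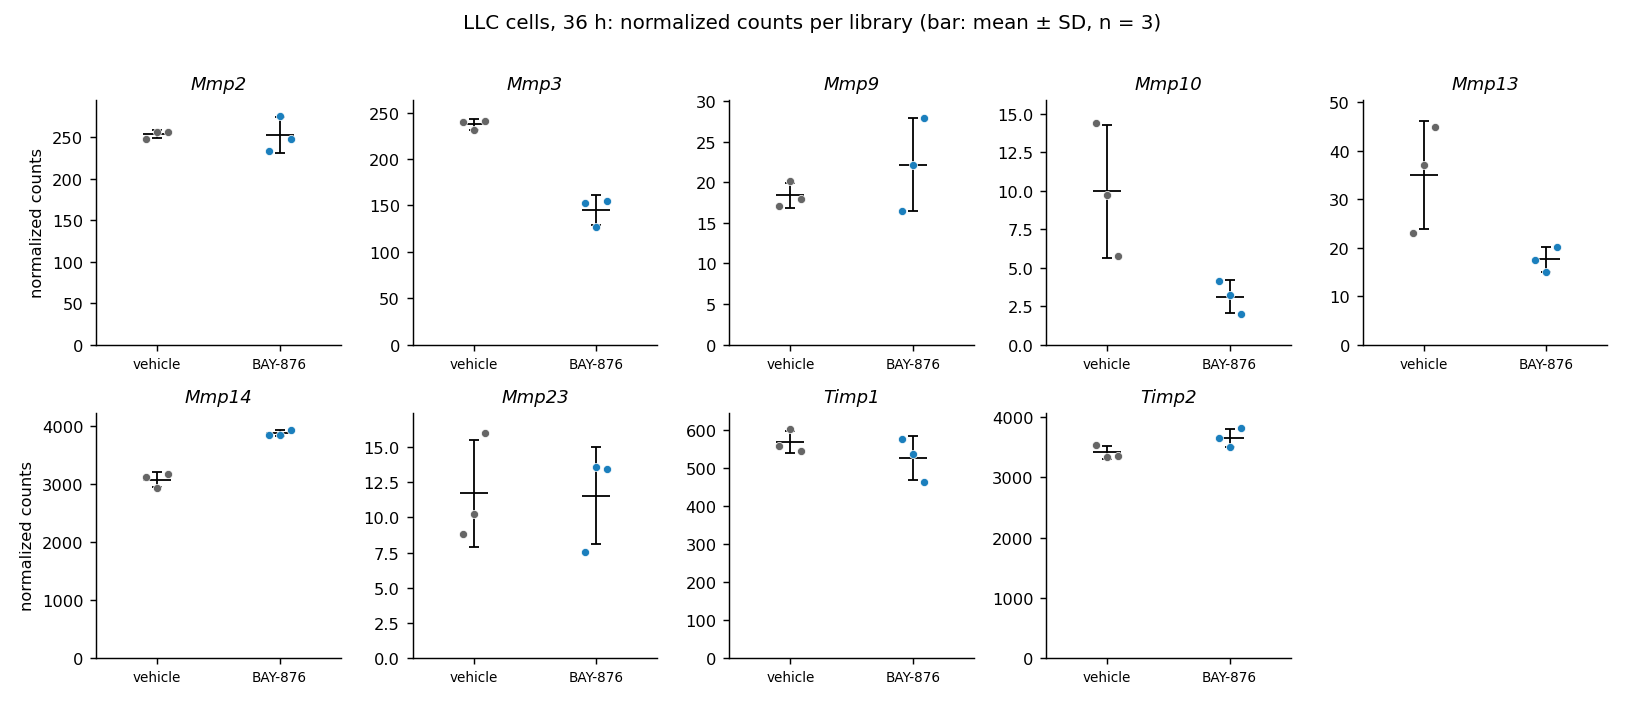
Normalized counts of 9 members in the 6 LLC libraries at 36 h, 1 point per library with the mean and SD (n = 3) in black, each panel on its own axis from 0. Mmp14 was called higher and Mmp3 lower with BAY-876, while Mmp13 did not pass and Mmp10 was not tested. Levels cannot be compared between genes on this scale.

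Mmp2, or gelatinase A, and Mmp23, a small transmembrane protease without the hemopexin domain of most MMPs, had no call with a single agent that held under all alternatives. Mmp2 stood at 7.15, 7.82 and 7.35 TPM in control and 4.88, 6.56 and 6.38 TPM with BAY-876. That difference of −0.29 (SE 0.11) only just passed (limma adjusted p = 0.04995), lost its call in 9 of the 12 alternatives, among them without BAY-876 replicate 1 (−0.18, limma adjusted p = 0.187), and has an adjusted p of 0.322 in the authors' deposited table. TNF added to BAY-876 brought Mmp2 to 9.17, 8.91 and 7.78 TPM, a rise of 0.48 over BAY-876 alone (SE 0.11, limma adjusted p = 0.0033). With TNF alone Mmp2 read 8.35, 7.57 and 7.75 TPM, which did not pass against control (log2 0.07, SE 0.11, limma adjusted p = 0.599). The combination overlapped control, and the Mmp2 interaction of 0.40 (SE 0.15) did not pass (limma adjusted p = 0.236). At 36 h the Mmp2 means were 253 ± 4.70 and 252 ± 21.7 normalized counts (SD, n = 3).

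Mmp23 was at 3.16, 2.43 and 2.53 TPM in control, 2.34, 1.26 and 2.08 with BAY-876, 2.83, 2.43 and 1.84 with TNF, and 5.63, 8.31 and 4.22 with both. Only the combination stood apart, above every other library. It exceeded BAY-876 alone by 1.26 (SE 0.22, limma adjusted p = 0.000551) and TNF alone by 1.04 (SE 0.22, limma adjusted p = 0.0033). The interaction of 1.41 (SE 0.31) passed narrowly (limma adjusted p = 0.0447). It lost that call under the replicate block (limma adjusted p = 0.0609), with the other pseudocount, without a filter, and without any 1 library other than combination replicate 3 (limma adjusted p = 0.0574 to 0.107). At these levels a few TPM decide the value, and the 3 combination libraries differed among themselves by up to 4.09 TPM.

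Over the members that could be tested, BAY-876 changed 2 of 8 at 36 h (1 higher, 1 lower) and 4 of 7 at 32 h (1 higher, 3 lower). Of all genes, 14.4% were called at 36 h (7.34% higher, 7.10% lower) and 37.4% at 32 h (11.5% higher, 25.8% lower). TNF changed 3 of 7 against control (2 higher, 1 lower) beside 45.6% of all genes (19.4% higher, 26.1% lower). In BAY-876 cells it changed 6 of 7 (4 higher, 2 lower) beside 44.2% of all genes (19.3% higher, 24.8% lower). Both TNF counts include Mmp9 among the higher members, whose calls followed from the filter. BAY-876 added to TNF changed 4 of 7 (1 higher, 3 lower) beside 34.0% (10.4% higher, 23.6% lower), and the interaction was called for 1 of 7 (higher) beside 1.56% (0.736% higher, 0.822% lower). Nothing is read from these counts, since the members were chosen with the contrasts known. At 32 h the share of higher genes among those called with BAY-876 moved from 30.8% to 49.3% under quantile normalization, and from 30.5% to 47.6% with TNF present, while the calls of Mmp14, Mmp3 and Timp1 without TNF, and of Mmp3, Timp2, Mmp23 and Timp1 with it, kept their direction and their side of the threshold. The comparisons with a shared control or treatment group are not independent of each other.

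**Figure D3:**
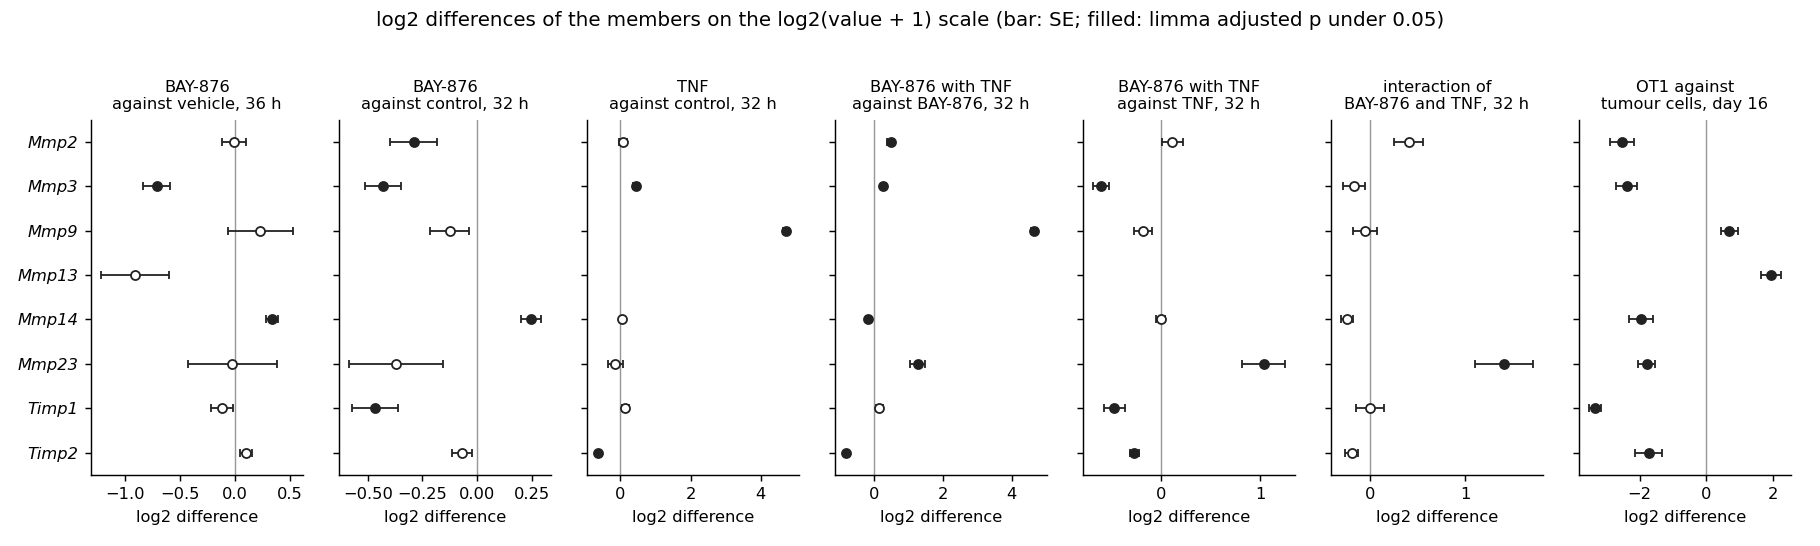
log2 differences of the members on the log2(value + 1) scale with their SE, 1 panel per comparison, each on its own axis; filled points passed a limma adjusted p of 0.05 and a missing point was under the filter. Mmp9 stood at 4.71 and 4.65 with TNF, calls that followed from the filter, and the interaction was called for Mmp23 alone.

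The sum of all 23 Mmp genes differed little between culture groups, from 182 ± 5.89 TPM in control to 201 ± 6.56 with TNF (SD, n = 3). The sum of the 4 Timp genes was 146 ± 7.07 TPM in control, 127 ± 4.19 with BAY-876, 117 ± 7.09 with TNF and 90.5 ± 4.67 with both. The ratio of the sums was therefore 1.25 ± 0.0205 in control, 1.54 ± 0.0524 with BAY-876, 1.72 ± 0.0941 with TNF and 2.12 ± 0.0339 with both, and no library of one group overlapped those of another. This ratio was formed after the member values were known and is given without a test. It is a ratio of transcripts, not of active enzyme to inhibitor. Mmp14 made up 60.4 to 71.9% of the Mmp sum in every culture library, and Timp1 rose from 34.1% ± 2.41 of the Timp sum in control to 47.1% ± 2.06 with TNF as Timp2 fell.

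**Figure D4:**
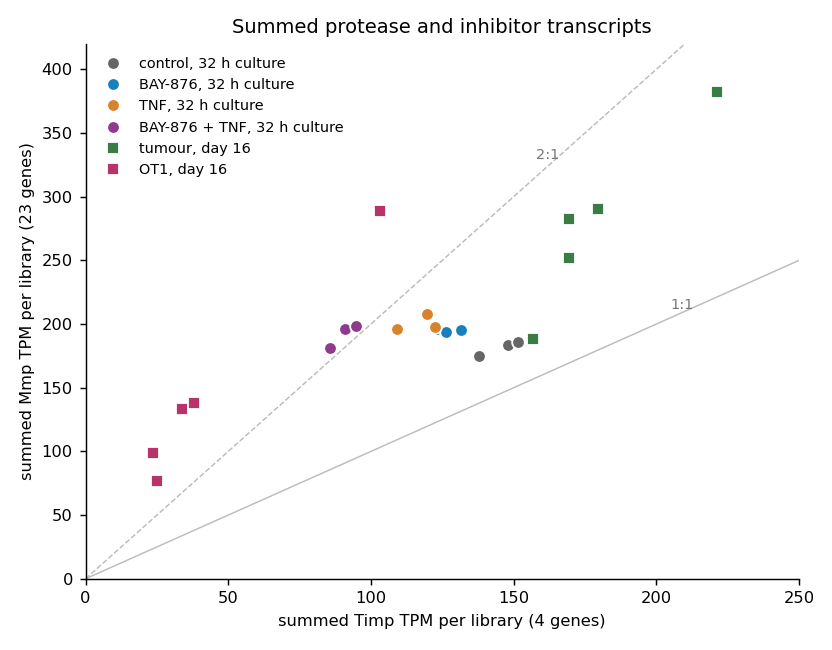
Summed TPM of the 23 Mmp genes against summed TPM of the 4 Timp genes, 1 point per library, circles for the 32 h cultures and squares for day 16, with lines of equal sums and of a 2:1 ratio. Control libraries lay at a ratio of 1.23 to 1.27, those of BAY-876 with TNF at 2.09 to 2.16, and OT1 libraries at 2.80 to 4.17; the 2 tables were normalized separately.

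Genes around the proteases also moved with TNF, where 45.6% of all genes were called (19.4% higher, 26.1% lower). Of 21 matrix substrates that passed the filter, 14 fell and 1 rose with TNF, with a median log2 difference of −0.76 against −0.06 for all genes tested. The 4 with the smallest p were Sparc, a collagen-binding matricellular protein (−1.91), the collagens Col6a2 (−2.04), Col6a1 (−1.64) and Col5a1 (−1.08). Of 13 AP-1, Ets and NF-kappaB factors 10 rose and 2 fell, led by Nfkb2 (1.89), Junb (1.92), Relb (2.6) and Nfkb1 (1.09). Of 7 plasminogen system genes 2 rose and 4 fell, with the urokinase receptor Plaur at 0.71, against Anxa2 at −0.54 and S100a10 at −0.57. Of 7 other MMP regulators 3 rose and 4 fell, among them Lrp1, a receptor that clears MMPs (−1.51). Of 10 ADAM and ADAMTS proteases 4 rose and 4 fell, with Adamts7 at 2.78, and of 8 cathepsins and cystatins 3 rose and 4 fell, with Ctsz at 1.16. The 6 TNF response genes listed as a check all rose. Summed fibroblast markers, 8 genes of which LLC cells expressed some, fell from 164 to 171 TPM in control to 63.4 to 64.3 with TNF. The sum of the 6 tumour markers fell from 1095 to 1172 to 607 to 642 TPM, although Hmga2 among them rose (0.46). The part of both sets in the member differences was not tested.

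With BAY-876 at 32 h 37.4% of all genes were called (11.5% higher, 25.8% lower), a split that moved towards equal shares under quantile normalization as given above. The matrix substrates numbered 2 higher and 10 lower of 21 (median −0.14 against −0.09 for all genes), led by Col18a1 (−1.05). At 36 h, where 14.4% of all genes were called, they numbered 5 higher and 6 lower of 21, with Col6a1 at 0.69 and Col3a1 at 0.41 against Col18a1 at −0.51 and Lamb1 at −0.43. Plau, the urokinase activator, fell by 0.97 and Plat, the tissue activator, by 0.67, in a plasminogen list with 3 of 7 lower and none higher. At 36 h Plau was called lower (−0.31) and Anxa2 higher (0.33), where Anxa2 had been lower at 32 h (−0.15). Of the factors 4 rose and 3 fell of 13, with Jund at 0.41 and Junb at −0.49, and at 36 h 6 rose and 1 fell of 13, with Jund at 1.03 and Junb at −0.29. The glucose-sensing gene Txnip, listed as a check of the inhibitor, fell by 4.90 at 32 h and fell by 5.96 at 36 h. Marker sums moved with BAY-876 at 32 h as well. The summed myeloid markers stood above the control range as given above, but Cd14 was called higher (0.78) and Lyz2 lower (−0.89). The 8 fibroblast markers summed to 202 to 216 TPM against 164 to 171 in control. Among them Dpt (0.61) and Pdgfrb (0.64) rose and Pdgfra fell (−0.79). The 6 tumour markers summed to 889 to 913 against 1095 to 1172 TPM. The part of these marker sets in the changes of Mmp14, Mmp3 and Timp1 with BAY-876 was not tested.

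On day 16 most members were higher in sorted tumour cells than in OT1 libraries. Of the 10 members 8 passed the filter of 1 TPM in 5 libraries, and all 8 of these were called, 6 lower and 2 higher in OT1 libraries, beside 74.5% of all genes called (30.1% higher, 44.4% lower), so a call by itself says little here. Mmp3 passed the filter only through the 5 tumour libraries, so its call followed from the filter. Mmp23 passed through the 5 tumour libraries and 1 OT1 library, and Mmp13 through the 5 OT1 libraries and 1 tumour library. Each passed mainly through the group where it was high, so no p is given for Mmp3, Mmp23 or Mmp13. The median difference of the 8 was −1.87 against −0.21 for all genes tested. As it includes Mmp3, Mmp23 and Mmp13, it is not independent of the filter, and nothing is read from it. In such bulk libraries fewer cells of a type and less RNA per cell cannot be told apart. Tumour markers summed to 47.2 to 161 TPM in OT1 libraries against 1239 to 1467 in tumour cells.

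Timp1 had the largest difference of the 8 on the log2(TPM + 1) scale, at 78.1, 71.6, 85.3, 74.2 and 91.0 TPM in tumour cells and 10.0, 6.34, 6.18, 9.10 and 4.29 TPM in OT1 libraries (log2 −3.35, SE 0.18, limma adjusted p = 1.72e-08). The 2 sets were far apart, and OT1 replicate 5, with the fewest tumour markers, was the lowest. Syn1, which spans Timp1, was at 1.47 to 11.2 TPM on day 16. Mmp2 read 5.18, 20.4, 10.1, 11.95 and 28.0 TPM in tumour cells and 0.746 to 2.43 TPM in OT1 libraries (log2 −2.53, SE 0.37, limma adjusted p = 6.42e-05). Mmp3 read 2.30, 13.7, 5.56, 6.77 and 6.27 TPM against 0.0551 to 0.837 TPM (log2 −2.39, SE 0.32, no p given), a ratio of means of 18.4 where that of Timp1 was 11.1, and Mmp23 read 2.83 to 8.01 against 0.341 to 1.56 TPM (log2 −1.79, SE 0.25, no p given). The ranges of Mmp2, Mmp3 and Mmp23 did not overlap between the groups, in a comparison where 74.5% of all genes were called. The share of all genes without overlap was not counted, so nothing is read from this separation. Mmp10 was under the filter at 0.187 to 0.596 TPM in tumour cells and at 0 in 3 of 5 OT1 libraries. Mmp2 and Mmp3 varied more between tumour libraries, by 5.41 and 5.94 times from the lowest to the highest, than Timp1 did.

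Mmp14 and Timp2 were high in tumour cells and uneven in OT1 libraries. Mmp14 stood at 147, 209.6, 198, 221 and 306 TPM in tumour cells and at 29.6, 57.9, 32.5, 55.1 and 142 TPM in OT1 replicates 1 to 5. Timp2 stood at 78.3, 95.9, 83.9, 105 and 128 TPM against 14.9, 27.1, 17.2, 27.0 and 98.7 TPM. OT1 replicate 5, with a myeloid sum of 13089 TPM, was the highest in both and put Timp2 inside the tumour range, while replicate 1, with the lowest myeloid sum, was the lowest in both. The differences were −1.95 for Mmp14 (SE 0.37, limma adjusted p = 0.000452) and −1.72 for Timp2 (SE 0.41, limma adjusted p = 0.00252). Without OT1 replicate 5 they were −2.30 and −2.16, and without OT1 replicates 2, 4 and 5, chosen for their myeloid sums, −2.72 and −2.52. The libraries left out were the highest OT1 libraries for both genes, so the wider differences followed from the choice. The last fit kept only OT1 replicates 1 and 3.

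Mmp13 and Mmp9 were the 2 members higher in OT1 libraries. Mmp13 read 2.28, 5.62, 4.39, 7.51 and 8.15 TPM against 0.526, 0.467, 0.488, 1.67 and 0.152 TPM in tumour cells, without overlap (log2 1.96, SE 0.30, no p given). Leaving out OT1 replicates 2, 4 and 5, the highest OT1 libraries for Mmp13, made it 1.40, a fall that followed from that choice. Mmp9 read 5.77, 8.50, 8.18, 10.8 and 18.8 TPM against 4.10, 5.77, 5.87, 4.95 and 7.52 TPM, groups that overlap. Its difference of 0.71 (SE 0.26, limma adjusted p = 0.0258) fell to 0.48 without OT1 replicate 5 (limma adjusted p = 0.0346). Without OT1 replicates 2, 4 and 5 it was 0.27 and no longer called (limma adjusted p = 0.298). As these were the highest OT1 libraries for Mmp9, the difference had to fall in both fits. It also lost its call without OT1 replicate 4, tumour replicate 1 or tumour replicate 4 (limma adjusted p = 0.0536, 0.0635 and 0.0536). Tumour cells sorted on day 16 held Mmp9 at 4.10 to 7.52 TPM, where LLC cells cultured without TNF read 0.147 to 0.405 TPM in the other table. No test was made across tables, and the sorted cells were LLC-OVA-NGFR. Their libraries held summed myeloid markers at 38.0 to 124 TPM, against 13.2 to 15.1 TPM in cultured control cells. Summed neutrophil markers stood at 1.37 to 26.2 TPM, against 0.351 to 0.992 TPM in those controls. The part of host cells in the Mmp9 values of the tumour libraries was not tested.

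Some MMPs that are not members were also higher in OT1 libraries. Mmp12, macrophage elastase, was at 25.4, 32.2, 33.6, 36.8 and 72.4 TPM against 0.729 to 3.32 TPM in tumour cells (log2 3.78, SE 0.30, limma adjusted p = 3.67e-07) and made up 28.6% ± 4.61 (SD, n = 5) of their Mmp sum. Mmp8, neutrophil collagenase, and Mmp25, a lipid-anchored MMP of leukocytes, were higher by 2.05 and 2.00, and Mmp11 and Mmp28 were lower by 2.59 and 1.45 on the log2 scale. Of the 6 non-member genes that passed the filter 5 were thus called, beside 74.5% of all genes. All 14 myeloid markers, and the 4 of 9 neutrophil markers that passed the filter, were called higher in OT1 libraries. The filter could be met by the OT1 libraries alone, so the direction of these calls is not independent of it. How much of the Mmp9, Mmp12, Mmp13, Mmp14 and Timp2 values in OT1 libraries came from cells other than T cells was not tested. Mmp14 made up 40.8% ± 5.99 of the Mmp sum in OT1 libraries and 77.4% ± 2.24 in tumour cells. The ratio of Mmp to Timp sums was 3.52 ± 0.579 in OT1 libraries and 1.54 ± 0.209 in tumour cells (SD, n = 5), without overlap and without a test.

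**Figure D5:**
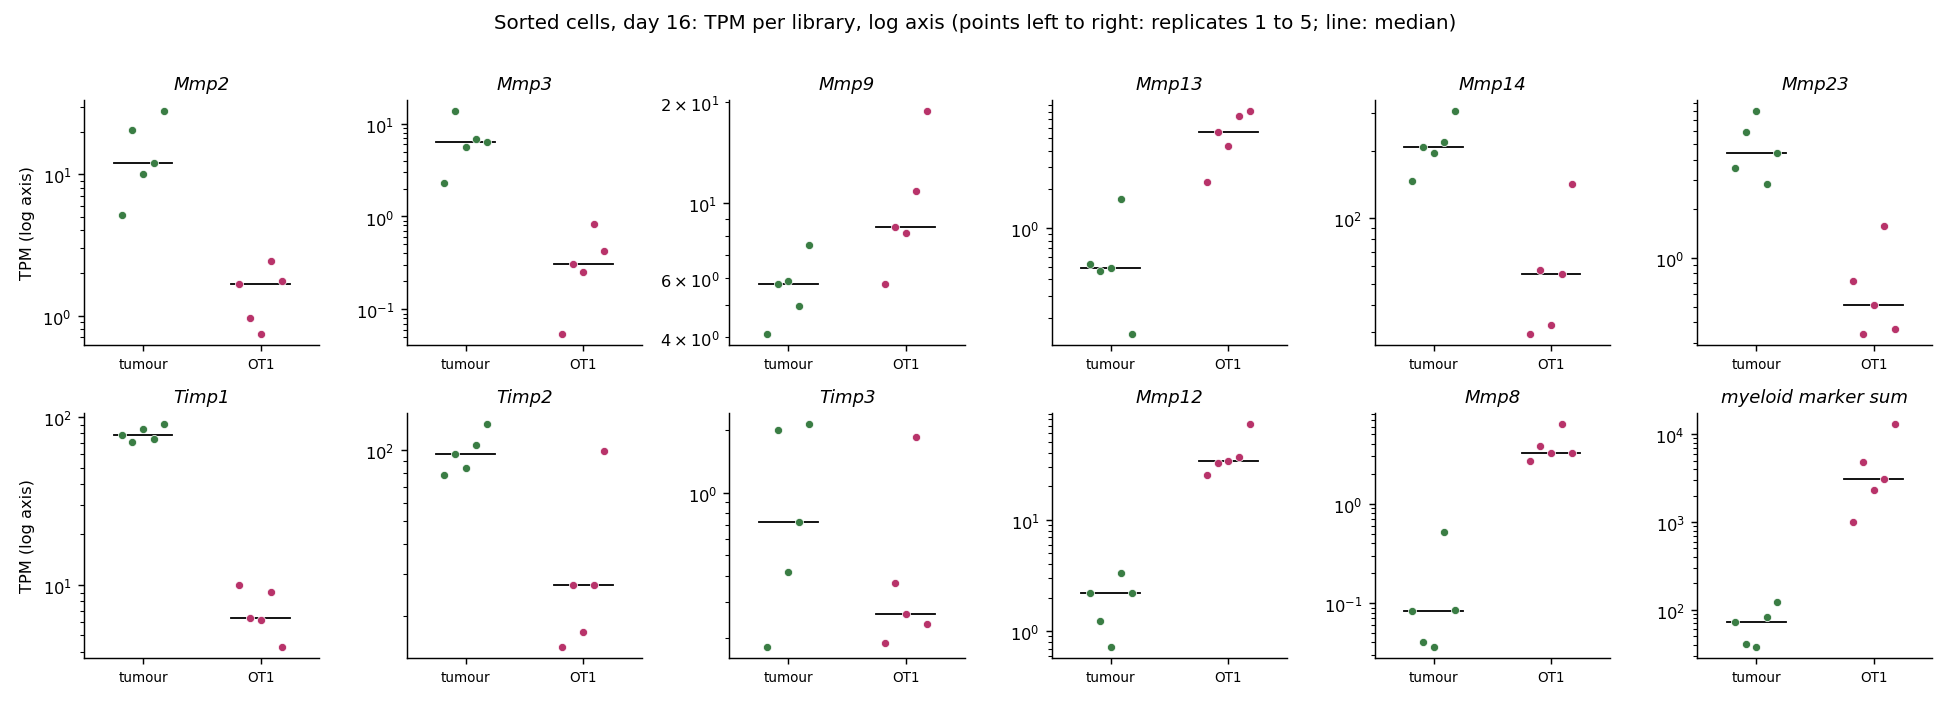
TPM on log axes of 9 members, Mmp12, Mmp8 and the sum of 14 myeloid markers in 5 tumour and 5 OT1 libraries of day 16, 1 point per library from replicate 1 at the left to 5, with the median as a line. OT1 replicate 5, at a myeloid sum of 13089 TPM, was also the highest OT1 library for Mmp14 (142 TPM) and Timp2 (98.7 TPM).

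The counts of calls that follow stand beside 74.5% of all genes called on day 16 (30.1% higher, 44.4% lower). Around the proteases, 20 of 21 matrix substrates were lower in OT1 libraries and none higher, with a median of −3.28, led by the laminin chains Lamb1 (−3.85), Lamc1 (−2.16) and Lama5 (−3.72) and by Col4a1 (−3.28). Of 11 cathepsins and cystatins 6 were higher and 2 lower, with Ctsc at 6.38, Ctss at 6.14 and Ctsd at 2.50 against Ctsl at −2.06. Of 8 plasminogen system genes 2 were higher and 5 lower, with the protease inhibitor Serpine2 at 6.42 and Plat at −2.66. Of 10 ADAM and ADAMTS proteases 3 were higher and 5 lower, with Adam19 at 5.12 and Adamts4 at −3.10. Of 9 other MMP regulators 2 were higher and 4 lower, among them the tetraspanins Cd82 (2.98) and Cd63 (−2.61).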

How the data were processed

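RNA-seq of 28 libraries in 8 groups was analysed from 3 deposited tables. Per the submitters' processing notes, STAR 2.6.1d, Salmon 0.14.1 (36 h) or 0.13.1 (other libraries), DESeq2 1.34.0 and mm10 were used; the role of each, strandedness and annotation release are not given in the sources used here. Values deposited for 36 h are a DESeq2-normalized count signal, from which whole reads could not be recovered. Values deposited for 32 h and day 16 are TPM, scaled by the authors to 1000000 per library. The authors' deposited comparison tables give a log2 fold change, its SE and an adjusted p-value for each gene. Among the 32 h columns, 24 without a sample in the labels were not used. For 2 libraries of BAY-876 with TNF the treatment label names another compound number, and both were grouped by title.

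A gene was tested if 3 libraries (day 16: 5) reached 10 normalized counts or 1 TPM. Fits of log2(value + 1) used limma 3.58.1 (R 4.3.3) with its trend option, the 12 libraries of 32 h together, without a block. The fit was tested on simulated data. Alternatives were no filter, a stricter filter (mean of 5 TPM or 100 counts), a pseudocount of 0.1 TPM or 10 counts, quantile normalization, the replicate block, only the groups compared, each library left out, and day 16 without OT1 replicates 2, 4 and 5. Replicate libraries correlated at 0.971 to 0.996, and none was a copy.

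The members and gene lists were chosen with earlier results of these data known. All members are named, with up to 4 genes of smallest p per list and the 3 genes most like a member; some genes the rule names are left out here. Gene positions come from GENCODE M21 on GRCm38 and promoters from RefSeq.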

Additional observations from a re-analysis of the deposited data

Results flagged for a closer look

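Of 20 groups examined on day 16, the 10 members in tumour and in OT1 libraries (5 each), 4 held a library far from the others by Dixon's criterion. Its rate of about 1 in 20 assumes normal values, while TPM were used without a log scale, and genes share libraries. No excess over chance is therefore read from this count. OT1 replicate 5 was far above the other OT1 libraries for Mmp14 at 142 TPM and for Timp2 at 98.7 TPM, and it also held the highest myeloid sum, 13089 TPM. OT1 replicate 4 was far above the others for Timp3, at 1.85 TPM against 0.189 to 0.367 TPM. Tumour replicate 4 was far above the others for Mmp13, at 1.67 TPM against 0.152 to 0.526 TPM, and the Mmp13 difference keeps its direction without it. The response of Mmp23 to BAY-876 differed with and without TNF by an interaction of 1.41 on the log2 scale, which passed narrowly and lost its call under most alternatives.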

How the results depend on the processing

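Of 660 alternative values of single members, 609 kept their direction and side of the threshold, 32 lost their call and 19 changed sign, the last all in differences that were not called. Under quantile normalization these were Mmp23 at 36 h (0.0121), Timp2 with BAY-876 at 32 h (0.00705), Mmp14 (−0.0111) and Mmp23 (0.0744) with TNF, Mmp14 with both agents against TNF (0.0708) and the Timp1 interaction (0.000857). The Mmp9 interaction was 0.23 with the other pseudocount. With each library left out in turn, the values ran from −0.0762 to 0.0446 for Mmp2 and −0.19 to 0.23 for Mmp23 at 36 h, from −0.0330 to 0.0385 for Mmp14 with both agents against TNF, and from −0.0926 to 0.0757 for the Timp1 interaction. Genes called at 36 h numbered 1868, and 643 to 2391 with a library left out, among them 1075 without BAY-876 replicate 3 and 766, 714 and 643 without vehicle replicates 1, 2 and 3. Genes called for the interaction numbered 199, and 110 to 252 with a library left out; the 6 lowest, 110 to 131, were without BAY-876 replicates 2 or 3, control replicates 1 or 2, or TNF replicates 2 or 3. Members called for the interaction fell from 1 to 0 with the other pseudocount, without a filter, with the stricter filter and under the replicate block, and were 0 to 1 with a library left out. On day 16 the stricter filter left 5 members, all called, where 74.5% of all genes were called under the main filter. The share of all genes under the stricter filter is not given here, so nothing is read from that count. Whether replicate numbers pair samples is not given in the labels. Libraries of the same number had deviations from the group means that correlated between −0.07 and −0.02 (36 h), −0.19 and 0.12 (32 h) or 0.05 and 0.11 (day 16). Libraries of different numbers gave −0.01 to 0.06, −0.19 to 0.22 and −0.17 to 0.11. The same-number values were thus small, but on day 16 all were positive, and this check cannot exclude shared mice. The replicate block ended the calls of Mmp2 with BAY-876 at 32 h (limma adjusted p = 0.0675) and of the Mmp23 interaction, and left 174 genes called for the interaction. TPM hide the depth, so genes near 1 TPM, among them Mmp10, Mmp13 and Timp3, could not be compared at 32 h.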
